A study of Mus musculus with 4 samples.

Results

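Imprinted genes were examined for occupancy by RIF1, a chromosome-binding protein that sets when DNA replicates, in activated primary mouse B cells. The set comprised 37 genes named by imprinted cluster, and 36 were found by symbol in the GENCODE annotation of mouse build mm9, among 37310 annotated genes. Of these, 31 code for proteins and 5 for noncoding RNAs, and they fall into 15 clusters on 9 chromosomes, with 17 on chromosome 7. The long noncoding RNA gene Kcnq1ot1 is not in that annotation and was placed on the build through its RefSeq start sequence, so it is described apart from the 36.

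RIF1-bound chromatin was pulled down through an HA tag and sequenced (ChIP-seq) in splenic B cells of 2 groups with 2 samples each. Rif1FH/FH mice carry RIF1 tagged with Flag and HA at its own locus, and C57BL/6 (Rif1WT/WT) mice carry the untagged protein as the negative control. The Rif1FH/FH mice were also kept on a C57BL/6 background. Both groups were purified with anti-CD43 beads, activated for 72 h with LPS (5 µg/ml) plus IL-4 (5 ng/ml), and crosslinked. The age of the mice is not given in the sources used here. The values are the positions of intervals called as enriched in both Rif1FH/FH samples, without a height and without a value for either sample. The antibody field of the labels names the anti-CD43 beads, and the pulldown is described here after the study's methods. Depth per sample is therefore unknown, there are no replicate values, and no test between groups was possible. The list cannot tell the maternal from the paternal chromosome, and it holds no expression values with which the B cell label could be checked.

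At an imprinted gene, the copies inherited from the mother and from the father differ in activity. The difference is set by DNA methylation laid down in the egg or the sperm at imprinting control regions, which are stretches rich in CpG dinucleotides. Many of these regions contain the promoter of a gene or of a long noncoding RNA, and the zinc finger proteins ZFP57 and CTCF bind to one or the other parental copy of some of them. The parental copies of several imprinted domains are also known to replicate at different times.

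Of the 16332 intervals in the list, 16043 were narrower than 50 kb and are called peaks here, and 289 were wide and are taken to be RIF1-associated domains. The study defined peaks as lying outside these domains. A gene well inside a domain could therefore have no peak, and the shares of genes with each kind are not separate results. A peak was counted at the 5′ end of a gene if it overlapped, by at least 1 bp, the 1 kb on either side of that end. RIF1 peaks lay at the 5′ end of 16 of the 36 imprinted genes (44.4%), while 22.0% of all annotated genes had one. Among coding genes, the same was true of 15 of 31 imprinted genes (48.4%) and of 31.9% of all coding genes. A peak lay over the body of 18 imprinted genes (50.0%, against 24.6% of all genes). Among coding genes, this held for 17 of 31 imprinted genes (54.8%) and 35.9% of all coding genes. Wide intervals took in 3 imprinted genes (8.33%, against 19.3% of all genes). All 3 are coding, which makes 9.68% of the coding imprinted genes, against 22.6% of all coding genes. The remaining 15 imprinted genes (41.7%) had an interval of neither kind, as did 55.0% of all genes. Among coding genes, 11 of 31 imprinted genes (35.5%) had neither, near the 40.5% of all coding genes, and 20 (64.5%) had 1 or both kinds, near the 59.5% of all coding genes. No test was made of these shares, since neighbouring imprinted genes can share 1 interval and are not replicates. The 36 imprinted genes were also longer than most, with a median length of 25.3 kb. The median was 5.38 kb over all annotated genes and 15.4 kb over all coding genes. A longer gene can meet more intervals over its body, while the window at the 5′ end has a fixed size. The part of length in these shares was not tested.

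**Figure D1:**
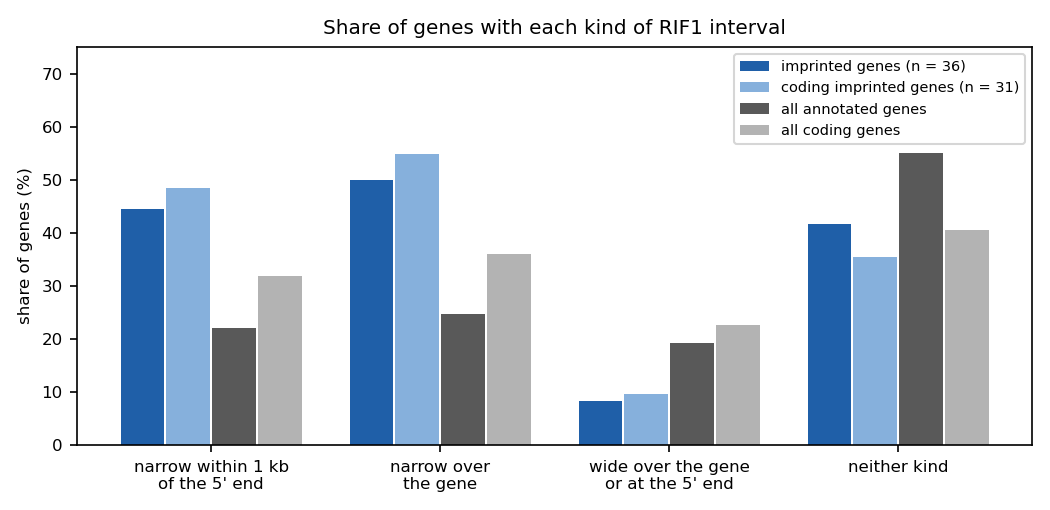
Bars give the share of genes (%) with a narrow interval (peak) within 1 kb of the 5′ end, a peak over the gene, a wide interval, or neither, for the 36 imprinted genes, the 31 coding ones, all annotated genes and all coding genes. Imprinted genes stand at 44.4% for peaks at the 5′ end and at 8.33% for wide intervals, beside 22.0% and 19.3% of all genes.

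The DNA under peaks near known control regions is shown here, since methylation at control regions carries the imprint. The bounds of the control regions were not mapped here, so how far each window overlaps one is unknown. Each is the central 300 bases of a peak on the plus strand of mm9, with CpG dinucleotides in capitals. The peak upstream of H19 (window chr7:149766037-149766336), the peak at the start of Kcnq1ot1 (chr7:150481604-150481903), the peak at the start of Airn (chr17:12934716-12935015), the peak at the shared start of Peg3 and Usp29 (chr7:6681998-6682297) and the peak at the shared start of Peg10 and Sgce (chr6:4697851-4698150) were chosen.
H19 upstream peak: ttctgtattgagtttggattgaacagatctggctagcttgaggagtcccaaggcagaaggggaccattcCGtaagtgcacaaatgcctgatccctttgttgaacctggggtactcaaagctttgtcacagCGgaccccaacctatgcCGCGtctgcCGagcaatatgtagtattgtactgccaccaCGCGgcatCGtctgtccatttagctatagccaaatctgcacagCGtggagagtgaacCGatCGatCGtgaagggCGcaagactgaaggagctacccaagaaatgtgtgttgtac
Kcnq1ot1 peak: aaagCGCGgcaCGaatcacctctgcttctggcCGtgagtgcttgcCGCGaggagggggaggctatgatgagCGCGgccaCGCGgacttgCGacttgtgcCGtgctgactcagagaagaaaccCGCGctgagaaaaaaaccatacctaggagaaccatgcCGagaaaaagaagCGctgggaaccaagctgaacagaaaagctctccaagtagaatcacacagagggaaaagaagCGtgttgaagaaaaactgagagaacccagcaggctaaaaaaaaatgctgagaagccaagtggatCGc
Airn peak: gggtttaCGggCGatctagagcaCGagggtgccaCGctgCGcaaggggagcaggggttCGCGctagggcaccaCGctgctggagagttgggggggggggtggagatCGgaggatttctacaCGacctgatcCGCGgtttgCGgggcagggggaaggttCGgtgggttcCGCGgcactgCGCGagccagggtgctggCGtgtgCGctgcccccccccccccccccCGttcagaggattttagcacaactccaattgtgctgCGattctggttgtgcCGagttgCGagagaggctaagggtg
Peg3 and Usp29 peak: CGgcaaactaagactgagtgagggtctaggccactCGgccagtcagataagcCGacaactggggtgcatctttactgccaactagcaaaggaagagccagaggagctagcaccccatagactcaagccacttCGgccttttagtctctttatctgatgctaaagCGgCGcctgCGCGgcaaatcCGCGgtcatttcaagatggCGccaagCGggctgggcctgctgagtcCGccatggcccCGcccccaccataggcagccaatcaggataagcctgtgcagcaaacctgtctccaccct
Peg10 and Sgce peak: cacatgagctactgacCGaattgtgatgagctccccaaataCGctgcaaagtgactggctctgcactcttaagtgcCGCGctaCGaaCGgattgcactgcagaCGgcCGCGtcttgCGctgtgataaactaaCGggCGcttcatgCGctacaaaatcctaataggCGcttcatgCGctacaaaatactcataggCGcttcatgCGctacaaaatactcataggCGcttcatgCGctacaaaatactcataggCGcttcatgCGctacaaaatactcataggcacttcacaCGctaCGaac
CpG dinucleotides numbered 13, 18, 24, 14 and 23 in these windows, in the order shown. The median was 7 over all 16043 peaks and 19 over peaks at 5′ ends of coding genes, so these windows lay on both sides of the latter. The core of the CTCF sites (GGNGGCAG, either strand) starts at position 178 of the H19 window and at position 205 of the Airn window, counted from 1 at the first base. The ZFP57 motif (TGCCGC, either strand) first occurs at position 145 in the H19 window, 6 in the Kcnq1ot1 window, 170 in the Airn window, 175 in the Peg3 window and 74 in the Peg10 window. These windows are a choice, and not all peaks at genes with a control region had the motif there. The central 300 bases held 0 at Impact, Mest and the 5′ ends of Grb10 and Inpp5f. They held 2 at Plagl1 and at the internal starts of Grb10 and Inpp5f. The most frequent word of 12 bases occurs 7 times in the Airn window, where it is a run of a single base, and 5 times in the Peg10 window. No word of this length occurs more than 1 time in the H19, Kcnq1ot1 and Peg3 windows.

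Imprinted starts can also face each other across a short shared promoter, and 2 such gaps lay wholly inside 1 peak each. Shown on the plus strand with CpG in capitals are the 163 bases between the RefSeq starts of Peg3 and Usp29 (chr7:6683131-6683293) and the 101 bases between the annotated 5′ ends of Sgce and Peg10 (chr6:4697205-4697305).
Peg3 to Usp29: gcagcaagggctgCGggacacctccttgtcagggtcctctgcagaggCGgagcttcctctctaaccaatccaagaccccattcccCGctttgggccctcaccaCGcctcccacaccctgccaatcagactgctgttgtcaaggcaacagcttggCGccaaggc
Sgce to Peg10: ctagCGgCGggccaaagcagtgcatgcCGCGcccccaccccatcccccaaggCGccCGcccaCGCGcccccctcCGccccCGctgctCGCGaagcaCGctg
These hold 5 and 13 CpG dinucleotides. The Sgce to Peg10 gap has a ZFP57 motif at position 25, whereas neither the ZFP57 motif nor the CTCF core is in the Peg3 to Usp29 gap.

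At the 16 genes with a peak at the 5′ end, the peak covered the 5′ end itself in all 16 cases. Peaks near a 5′ end lay close to it in general. Over all annotated genes, 22.0% had one within 1 kb and 19.4% within 0.1 kb. Peg10 and Sgce shared a peak, so that 15 distinct peaks were involved. Midpoints of these peaks ran from -796 bp (upstream, at Sgce) to 1044 bp (downstream, at Ascl2) relative to the 5′ end, with a median of 284 bp. They lay downstream in 12 of 16 genes, and the same share over all genes was not computed. Peak widths ran from 846 to 4781 bp with a median of 1754 bp, while the median was 1575 bp over the 6498 peaks at 5′ ends of coding genes. Of the 15 peaks, 8 were above this median.

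**Figure D2:**
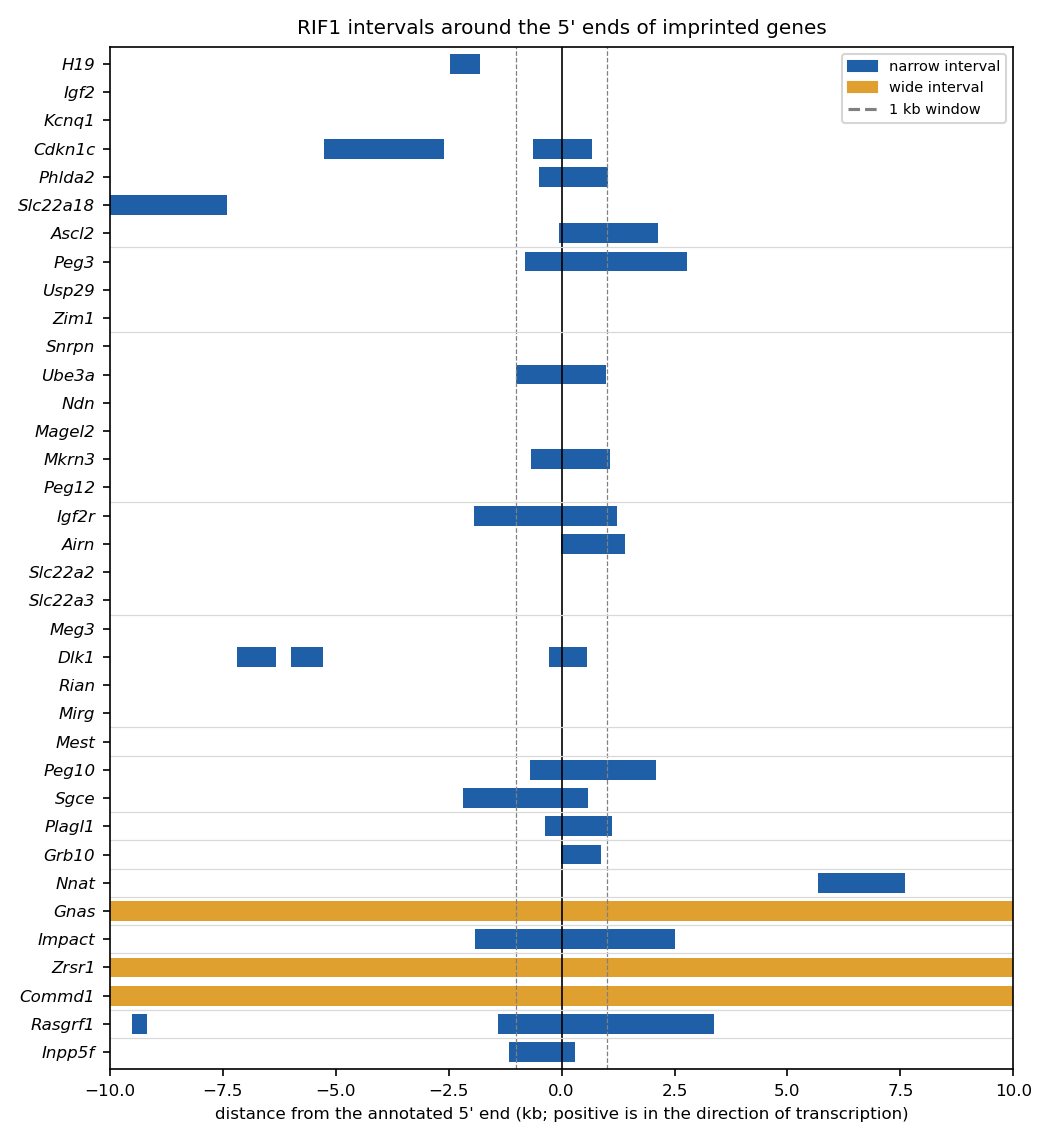
Each row is 1 of the 36 imprinted genes, grouped by cluster, and the x axis gives the distance in kb from its annotated 5′ end, positive in the direction of transcription. Blue bars are narrow intervals (peaks), orange bars are wide intervals cut off at 10 kb on each side, and dashed lines mark 1 kb on each side. Blue bars cross the 5′ end of 16 genes, and orange bars fill the rows of Gnas, Zrsr1 and Commd1.

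The widest of these peaks lay at Rasgrf1 (ENSMUSG00000032356.6, chr9:89804613-89921814), which encodes an activator of Ras in neurons. It was 4781 bp wide (chr9:89803204-89807984), wider than 99.0% of the peaks at 5′ ends of coding genes. A second peak of 668 bp with 3 CpG lay in an intron of Rasgrf1, and another of 332 bp lay 9.17 kb upstream. Next came Impact (ENSMUSG00000024423.5, chr18:13130761-13151457), a regulator of translation under stress, with a peak of 4430 bp (chr18:13128844-13133273, wider than 98.5%). The peak at Peg3 (chr7:6680357-6683937), which encodes a large zinc finger protein, was 3581 bp wide, and that at Igf2r (chr17:12961301-12964466) was 3166 bp wide. They were wider than 95.8% and 93.6% of the peaks at coding 5′ ends. Peg10 (derived from a retrotransposon) and Sgce (a sarcoglycan), which are transcribed away from each other, shared a peak of 2779 bp (chr6:4696611-4699389, wider than 89.2%) with 169 CpG and 3 ZFP57 motifs. The narrowest were at Dlk1 (846 bp, wider than 12.6%) and Grb10 (882 bp, wider than 14.2%).

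The largest cluster, on distal chromosome 7, contains 2 neighbouring imprinted domains. In the first, H19 (a noncoding RNA) and Igf2 (a fetal growth factor) compete for shared enhancers under a control region that lies a short way upstream of H19 and is bound by CTCF on the maternal copy. H19 (ENSMUSG00000000031.9, chr7:149761434-149764048) and Igf2 (ENSMUSG00000048583.9, chr7:149836673-149852721) had no peak and no wide interval over the gene or at the 5′ end. The only peak between Mrpl23 and Ascl2 lay 1.81 kb upstream of the 5′ end of H19 (chr7:149765863-149766510, 648 bp). It overlapped no annotated gene and was not within 1 kb of the 5′ end of any gene. It held 27 CpG dinucleotides, 1 CTCF core and 3 ZFP57 motifs, and its central sequence is the first one printed above. Igf2 was 70.2 kb from this peak, its nearest. All 4 RefSeq starts of Igf2 lacked a peak within 1 kb, including the most CpG-rich, with 24 CpG in 300 bases.

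In the neighbouring domain, the paternally expressed Kcnq1ot1 starts inside an intron of Kcnq1 and runs against it, and its transcription is known to silence nearby genes on the paternal copy. The RefSeq start of Kcnq1ot1, matched without mismatch to mm9, was at position 150482452 of chromosome 7 on the minus strand. A peak of 2817 bp (chr7:150480345-150483161) covered it and held 107 CpG dinucleotides. This was the widest of 4 peaks in Kcnq1 (ENSMUSG00000009545.7, chr7:150293159-150612955), a potassium channel gene whose own 5′ end was 37.6 kb from the nearest peak. The other Kcnq1 peaks were 590, 701 and 992 bp wide, lay in introns and held 12, 21 and 4 CpG. Of the maternally expressed genes around it, Ascl2 (a transcription factor of trophoblast), Cdkn1c (a cell cycle inhibitor) and Phlda2 (which restrains placental growth) each had a peak over the 5′ end, of 2190, 1299 and 1530 bp. A further peak of 2653 bp lay 2.61 kb upstream of Cdkn1c. The transporter gene Slc22a18 (ENSMUSG00000000154.8, chr7:150659626-150685239), which lies between Cdkn1c and Phlda2, had none, with its end 2.17 kb from the Phlda2 peak.

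**Figure D3:**
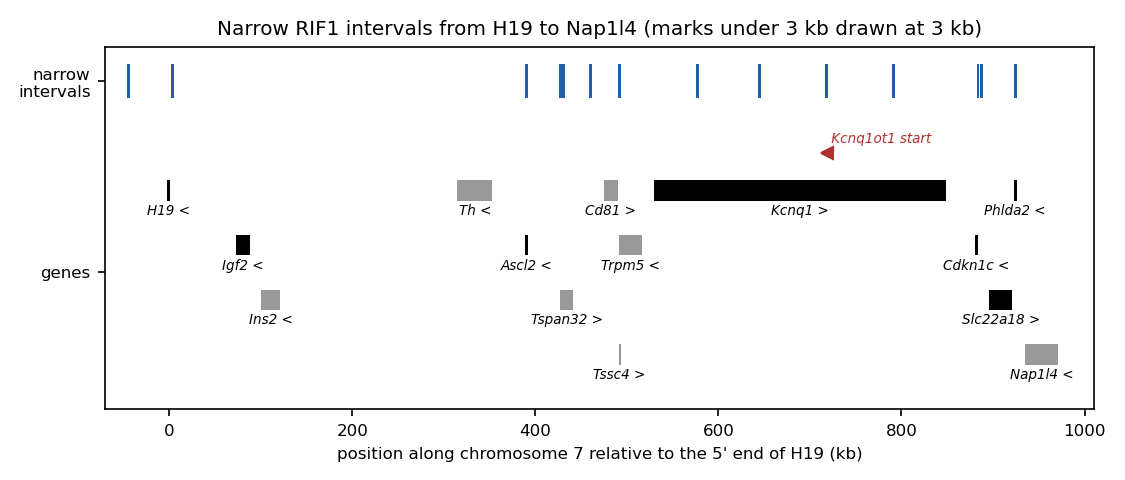
The x axis gives the position in kb relative to the 5′ end of H19 on chromosome 7, with imprinted genes of the set in black, other imprinted genes in grey, peaks in blue and the RefSeq start of Kcnq1ot1 in red. Arrows beside the names give the strand. A single peak sits just upstream of H19, none follows until Ascl2, and the Kcnq1ot1 start coincides with 1 of the 4 peaks in Kcnq1.

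In the Igf2r cluster on chromosome 17, the paternally expressed noncoding RNA Airn overlaps Igf2r, the receptor that removes IGF2, in antisense and is known to silence it. The promoters of both carried a peak. That of Airn (ENSMUSG00000078247.3, chr17:12934177-13052988) was 1416 bp wide and covered its 5′ end (chr17:12934158-12935573), within an intron of Igf2r. It held 95 CpG, 8 ZFP57 motifs and 2 CTCF cores. That of Igf2r (ENSMUSG00000023830.7, chr17:12875272-12962530) lay within the body of Airn. In total 5 peaks lay over Airn and 3 over Igf2r, and all 3 at Igf2r also lay over Airn. Besides the promoter peaks, the one over both genes was 552 bp wide with 3 CpG, and those over Airn alone were 1228 and 847 bp wide with 14 and 7 CpG. The organic cation transporter genes Slc22a2 and Slc22a3 of the same cluster had no interval, and their nearest peaks were 113 and 47.7 kb away.

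At Mest, Grb10 and Inpp5f, also listed with a control region at a promoter, a peak lay at or near an internal transcript start. The peak at Mest (ENSMUSG00000051855.8, chr6:30673547-30698457), which encodes a hydrolase, was centred 13.7 kb downstream of its 5′ end and lay 492 bp from an internal transcript start (chr6:30686875-30687558, 684 bp). Grb10 (ENSMUSG00000020176.10, chr11:11830511-11938686), an adaptor in growth factor signalling, had 3 peaks. Besides the one at the 5′ end, with 40 CpG, a peak of 1668 bp covered an internal transcript start (chr11:11925453-11927120) and held 156 CpG, or 9.35 per 100 bases. The third was 403 bp wide and held 9 CpG. Inpp5f (ENSMUSG00000042105.11, chr7:135754842-135839939), an inositol phosphatase gene, also had 3. These were a peak at the 5′ end with 49 CpG, an intronic peak with 8 and a peak of 691 bp with 45 CpG over a transcript start near its 3′ end (chr7:135831593-135832283). This gene is known to make its imprinted transcript from an internal promoter. At Plagl1 (ENSMUSG00000019817.11, chr10:12810497-12851500), a zinc finger transcription factor, 1 peak of 1482 bp covered the 5′ end and held 94 CpG and 6 ZFP57 motifs.

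Taking annotated and RefSeq starts together, 9 of the 13 genes listed with a maternally methylated control region at a promoter had a peak within 1 kb of a start. These were Kcnq1ot1, Peg3, Airn, Mest, Peg10, Plagl1, Grb10, Impact and Inpp5f. Gnas and Zrsr1 lay in wide intervals, and Snrpn and Nnat had neither. Among the other 24 genes, 10 had a peak at a start, 1 lay in a wide interval and 13 had neither. No share over all genes was computed for both kinds of start together, and a gene with more starts has more chances. At the annotated 5′ end alone, 7 of the 12 annotated genes with such a control region had a peak (58.3%). The same was true of 9 of the other 24 (37.5%) and of 22.0% of all genes. These differences were not tested. By annotated transcript starts alone, 16 of 31 coding imprinted genes (51.6%) had a peak, where 33.9% of all coding genes did. For comparison, 23.3% of all annotated genes had a peak at any transcript start, and 27.7% of the 25972 RefSeq genes placed on the build at any RefSeq start. The list of control regions was drawn up from background knowledge and not from measurements of methylation in these cells.

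Gnas (ENSMUSG00000027523.12, chr2:174109821-174172245), which encodes a stimulatory G protein subunit from several promoters, lay inside a wide interval of 940 kb (chr2:174080001-175020000) that overlapped 14 coding genes. Zrsr1 (ENSMUSG00000044068.4, chr11:22873215-22876498), a splicing factor gene in an intron of Commd1, and Commd1 itself (ENSMUSG00000051355.11, chr11:22734744-22882382) shared a wide interval of 526 kb (chr11:22460001-22986000) that overlapped 5 coding genes in all. The 3 genes were wholly inside these intervals, 29.8, 110 and 104 kb from the nearest edge. Their nearest peaks were 172, 148 and 142 kb away. Since peaks were defined as lying outside domains, none could lie closer than the edge of the interval. Commd1 is known for a part in copper handling.

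Of the genes with neither kind, most belonged to clusters in which other members had a peak. In the Snrpn cluster, linked to Prader-Willi and Angelman syndromes in people, Ube3a (a ubiquitin ligase) and Mkrn3 (a RING finger protein) had a peak of 2004 and 1754 bp over the 5′ end. Snrpn (ENSMUSG00000000948.9, chr7:67127388-67285105), which encodes a splicing protein and whose promoter region holds the control region of the cluster, was 123 kb from the nearest peak, and its 4 RefSeq starts were 146 to 591 kb from one. Ndn and Magel2 (proteins of the MAGE family) and Peg12 (related to regulators of Wnt signalling) were 69.1, 37.4 and 41.0 kb from the Mkrn3 peak, their nearest. In the Dlk1 cluster on chromosome 12, Dlk1 (a transmembrane protein related to Notch ligands) had a peak over its 5′ end and a pair of peaks 5.28 and 6.31 kb upstream. The maternally expressed noncoding RNAs Meg3, Rian and Mirg had none and were 65.7, 129 and 260 kb from their nearest peak, which lay beyond the 3′ end of Dlk1 (chr12:110711938-110713548). The control region of this cluster is known to lie between Dlk1 and Meg3, and no peak was listed in the 65.7 kb before Meg3.

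In the Peg3 cluster, Zim1 (a zinc finger gene) was 31.2 kb from the Peg3 peak. Usp29 (of the ubiquitin protease family) was 230 kb from a peak by its annotated span, which begins far downstream, but its RefSeq start lay inside the Peg3 peak. Nnat (ENSMUSG00000067786.9, chr2:157385814-157388258), which encodes a small membrane protein of the developing brain and lies within Blcap, had no peak, and the nearest was 3.24 kb beyond its 3′ end at a Blcap start. Over the 15 genes with neither kind, the distance to the nearest peak ran from 1.81 to 260 kb with a median of 65.7 kb, near the 69.5 kb of all coding genes without an interval.

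**Figure D4:**
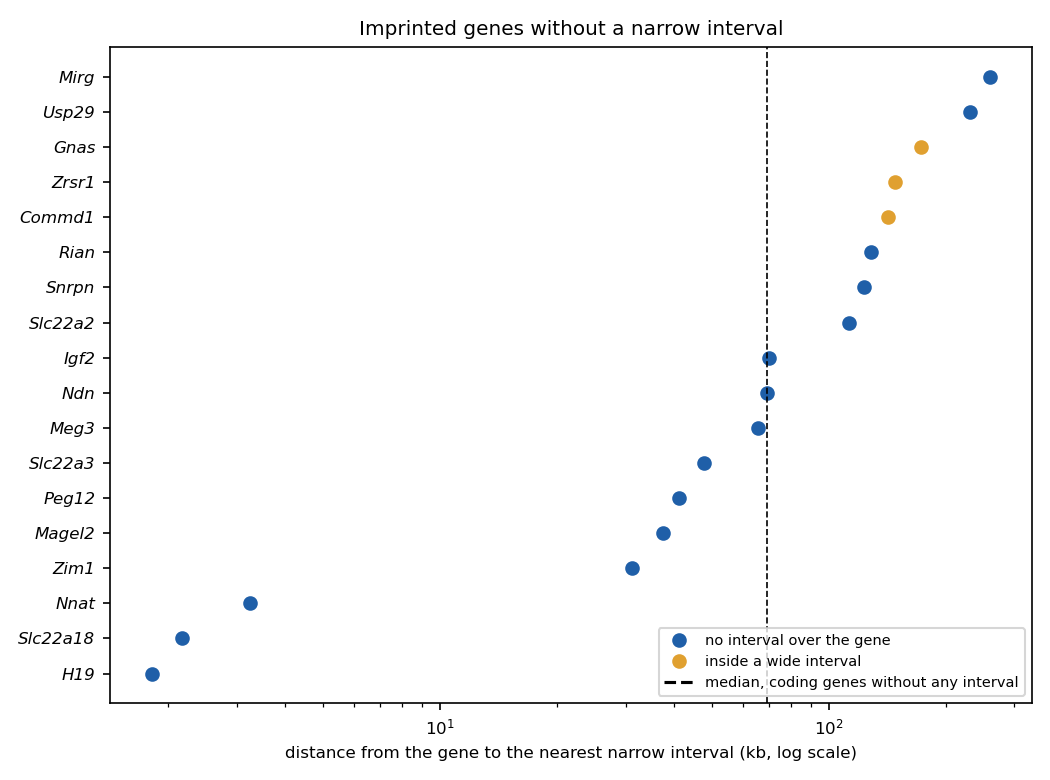
Points give the distance in kb (log scale) from each of 18 imprinted genes without a peak to the nearest peak, with genes inside a wide interval in orange. The dashed line is the median over coding genes without any interval, 69.5 kb. H19, Slc22a18 and Nnat lie within 3.24 kb of a peak, and the other genes at 31.2 kb or more.

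By parental expression, a peak lay at the 5′ end of 10 of 19 paternally expressed genes (52.6%) and 5 of 15 maternally expressed genes (33.3%), with Grb10 and Gnas in neither group, where 22.0% of all genes had one. Of the maternally expressed genes 4 are noncoding, and of the paternally expressed genes 1 is. Among coding genes alone, 9 of 18 paternally expressed and 5 of 11 maternally expressed genes had a peak at the 5′ end (50.0% and 45.5%), where 31.9% of all coding genes did. The shares come from few and clustered genes, and were not tested. The parental classes were assigned from a list, and which copy is expressed in these B cells was not measured. For Inpp5f, the peak counted here is the one at the 5′ end and not the one over the internal start. Of the 5 noncoding genes, only Airn had a peak at the 5′ end, where 7.29% of all noncoding genes had one (7.47% at any transcript start), and only Airn had a peak over the gene (7.70%). H19, Meg3, Rian and Mirg had neither kind of interval, as did 76.8% of all noncoding genes.

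The CpG content of the starts was set beside the peaks, since control regions are rich in CpG. RefSeq sequences of 300 bases, from 250 before to 50 after a start, could be placed for 31 of the 37 genes, with 45 starts. A start was called CpG-rich with at least 15 CpG. Of the 16 genes with such a start, 11 had a peak (68.8%), 2 lay in wide intervals and 3 (Igf2, Zim1 and Nnat) had neither. Over all RefSeq genes with a CpG-rich start, 53.7% had a peak and 23.8% a wide interval. Of the 15 genes without one, 4 had a peak (Kcnq1ot1, Peg3, Airn and Dlk1, with 9, 13, 3 and 9 CpG), where 11.6% of such RefSeq genes did. The peaks at these genes reached further downstream than the start sequences, and as a whole held 107, 129, 95 and 53 CpG. CpG content of the start sequences thus moved with the presence of a peak, and its part in the result was not tested. Peaks at the 5′ ends of imprinted genes had a median of 21 CpG in their central 300 bases, close to the 19 of peaks at coding 5′ ends.

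The ZFP57 motif was in the central 300 bases of 5 of the 15 peaks at imprinted 5′ ends (33.3%), compared with 19.1% of peaks at coding 5′ ends and 11.9% of all peaks. The CTCF core was in 3 of 15, compared with 14.8% and 13.2% of these peaks. At the starts themselves, the ZFP57 motif was in 11 of 45 sequences (24.4%, against 11.6% of all RefSeq start sequences) and the CTCF core in 8 (17.8%, against 12.6%). Starts of the same gene were counted apart, including nearly identical ones at Mest. By gene, the ZFP57 motif was at 10 of the 31 placed, and the same share over all genes was not computed. The motif contains a CpG, and none of these shares was matched for CpG content. A match to these letters is a description of the sequence and does not show that either protein was bound.

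Around each cluster, a territory from 500 kb before its first to 500 kb after its last gene was examined. Peak density over the 15 territories ran from 1.45 to 17.3 per Mb with a median of 9.21. Of these, 10 were above the 6.04 per Mb of the whole genome. The least dense of the 10 was the Dlk1 territory (6.94 per Mb), and 38.5% of windows of its length held at least as many peaks. The counts include the peaks at the imprinted genes themselves, so they are not separate from the counts by gene. The Plagl1 territory was densest, with 18 peaks in 1.04 Mb, followed by the distal chromosome 7 territory with 28 peaks in 1.93 Mb (14.5 per Mb). Of windows of the same length, 8.91% and 9.56% held at least as many. The Snrpn territory was the sparsest, with 6 peaks in 4.13 Mb and none of its sequence in a wide interval, and 84.8% of windows of that length held as many. The Gnas territory was also sparse, at 1.88 per Mb, but 55.7% of it was in wide intervals. In the territories, 64 of 185 coding genes outside the set (34.6%) had a peak at the 5′ end, near the 31.9% of all coding genes.

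**Figure D5:**
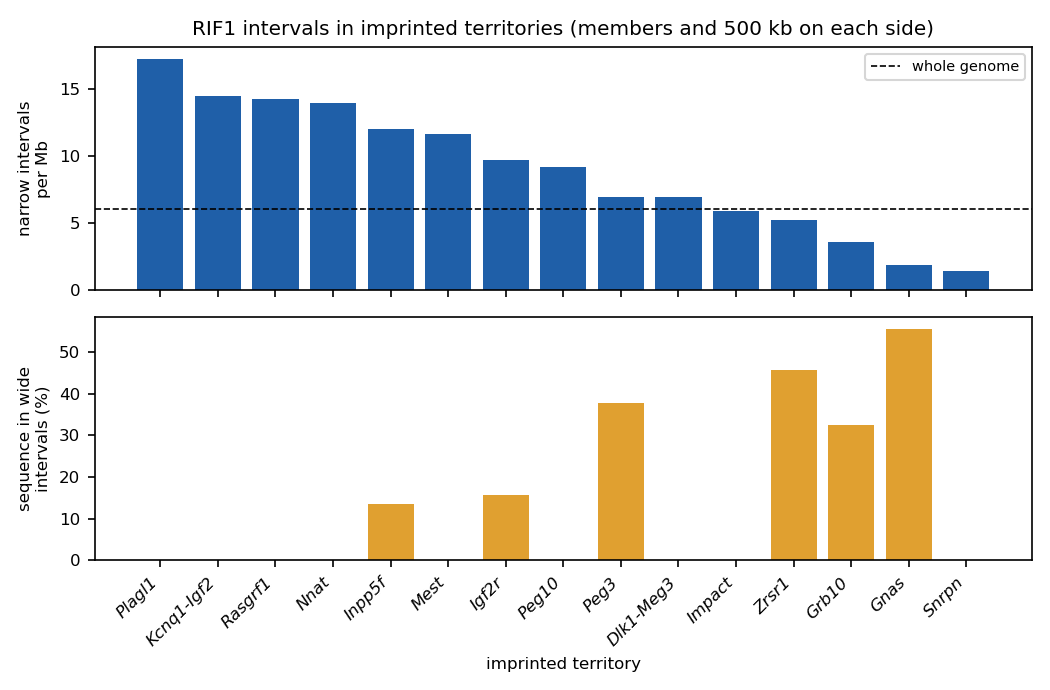
The upper bars give peaks per Mb in each of 15 territories, with the whole genome at 6.04 per Mb as a dashed line, and the lower bars give the share of the territory (%) in wide intervals. Density falls from 17.3 per Mb around Plagl1 to 1.45 around Snrpn, and wide intervals take up 55.7% of the Gnas territory.

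Another 47 genes known or reported to be imprinted in mice were listed, of which 38 were annotated. Of these, 37 are coding. A peak lay at the 5′ end of 14 (36.8%), near the 31.9% of all coding genes and above the 22.0% of all genes. A wide interval overlapped 3 (Ddc, Nespas and Gatm, 7.89%), where one overlapped 19.3% of all genes and 22.6% of coding genes. On distal chromosome 7, Tssc4, Tspan32 and Osbpl5 had a peak of 1162, 1040 and 1728 bp. Around Peg10 on chromosome 6, Casd1, Ppp1r9a, Pon3, Pon2 and Asb4 each had one, from 1105 to 2920 bp wide. The others were Atp10a (3905 bp), a phospholipid transporter beside Ube3a, and Sfmbt2, Trappc9, Ampd3, Htr2a and Mapt. Of the rest, Trpm5, Dlx5, Blcap and H13 had a peak over the gene but not at the 5′ end, and 17 (44.7%) had neither kind, as did 55.0% of all genes and 40.5% of coding genes.

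Genes for factors that write, read or erase DNA methylation or otherwise maintain imprints were also listed. Of 21 such genes, 5 had a peak at the 5′ end (23.8%, against 31.9% of coding genes), and 8 overlapped a wide interval (38.1%, against 22.6% of coding genes). The 5 were Zfp57 (the zinc finger factor named above), Dnmt3a and Dnmt3b (enzymes that add methylation anew), Smchd1 and Eed, with peaks of 1709, 472, 2246, 417 and 1937 bp. The 8 in wide intervals were Dnmt1 (which copies methylation after replication), Uhrf1 (its partner), Trim28 (the corepressor of ZFP57), Dnmt3l, Ctcfl, Dppa3, Ehmt2 and Tet2. Peaks were defined as lying outside domains, so a larger share in wide intervals leaves fewer genes that could have a peak. The shares are therefore not separate results. The difference from the imprinted genes was not tested.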

How the data were processed

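RIF1 ChIP-seq of 2 Rif1FH and 2 Rif1WT samples was deposited by the authors as 1 combined list of intervals from both Rif1FH samples, with start and end positions and no score. Per the labels and the study's methods, reads were trimmed (Trim Galore 0.6.4) and aligned to mm9 (Bowtie 1.0.0) with unique alignments kept, which leaves out repeated sequence. Narrow and broad peaks were called in each replicate (MACS2 2.2.6) and domains with EDD, which were merged (bedtools 2.27.1) and kept where called in both. Whether Rif1WT reads entered these calls is not given in the sources used here.

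Intervals were split at 50 kb, and the widest peak was 14827 bp and the narrowest wide interval 90000 bp. Overlaps with GENCODE M1 genes (NCBIM37, 37273 on chromosomes), distances and sequences were computed in Python 3.11.15 with pysam 0.24.0. Coordinates count from 1. RefSeq start sequences (GRCm38.p6) were placed on NCBIM37 with minimap2 2.31, keeping full matches without mismatch at mapping quality 30 or more (31610 of 32851 sequences). H19, Kcnq1, Cdkn1c, Peg10, Sgce and Impact had no start placed in this way. The overlap code was tested on simulated data. All genes of the set were named with their intervals, and of other lists those with a peak at the 5′ end or in a wide interval. Members and lists were chosen with earlier results of these data known. No group comparison and no test was made, since the list holds no value per sample. Alternatives changed the window, start, overlap and set of peaks.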

Additional observations from a re-analysis of the deposited data

How the results depend on the processing

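Of the 5 results on the 36 imprinted genes, recomputed under 17 alternatives, 14 stayed within 1.5 times the reported value. The number with a peak at the 5′ end was 16 with windows of 0.1 kb (19.4% of all genes), 17 with windows of 5 kb (25.8%) or any transcript start (23.3%), and 13 with the 8025 peaks at or above the median width (14.0%). At any RefSeq start, an alternative chosen after seeing the data, it was 15 of 31 (27.7% of RefSeq genes). The number in a wide interval was 3 throughout, and the number with neither kind ran from 12 with spans widened by 5 kb (51.0% of all genes) to 18 with the wider peaks alone (64.0%). The median distance to the nearest peak moved. Because 18 of the 36 genes had a peak over the gene, this median falls midway between 0 and the 1.81 kb of H19. A single gene can therefore shift it. The median was 0.907 kb from the gene to the edge of the peak, 6.55 kb from the 5′ end, 6.82 kb with the wider peaks alone and 1.47 kb to the midpoint of the peak. No paired analysis was possible because replicates were combined before deposit, and no value without a replicate could be computed for the same reason. Depth is unknown, so a gene without a peak is one without a listed peak.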
